A study of Drosophila melanogaster with 4 samples.

Results

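The 286 Sin3A binding peaks on the X chromosome of Drosophila Kc167 cells are described here, out of 1371 peaks in the deposited list of the whole experiment. They were selected by chromosome name alone, as all peaks placed on X, and neither score nor width entered the choice. They are set against 718 peaks on 3 autosomal arms, of which 188 lie on 2L, 174 on 3L and 356 on 3R. Kc167 is a female line derived from late embryos and is labelled with the genotype se/e. Chromatin of this line was either immunoprecipitated with the rabbit antibody Sin3A-RC (2 libraries) or kept as input DNA (2 libraries), and all 4 libraries share line, genotype and sex. The single list is the outcome of the comparison of ChIP with input, and it holds no values per library. The error between replicates and the read depth are therefore unknown. Intervals and p-values below cover counting error among the peaks of this list. Neighbouring peaks are not independent, so they state the error too narrowly.

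Sin3A is a large scaffold protein without a known DNA-binding domain of its own, which transcription factors recruit to regulatory DNA. It carries the histone deacetylase Rpd3 (HDAC1), an enzyme that removes acetyl groups from histone tails, and the complex is known mainly as a corepressor. The Drosophila X is a chromosome with its own chromatin regulation: in males the MSL complex binds it and acetylates histones, which raises transcription of the single X. In female cells Sex-lethal prevents translation of msl-2, and this complex is not assembled. Kc167 is labelled female, so the peaks on X come from cells in which this mark is not expected on X as a whole.

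The X chromosome carried 286 Sin3A peaks for 2197 protein-coding genes, and 2L, 3L and 3R together carried 718 peaks for 8794 genes (gene numbers from a RefSeq table of release 6). This corresponds to 13.0 peaks per 100 genes on X and 8.16 per 100 genes on the 3 arms, a ratio of 1.59 (95% exact interval 1.39 to 1.83, two-sided exact conditional test, p = 1.33e-10). Per gene, the density on X was also higher than on each arm taken alone. Against 3L, with 6.35 peaks per 100 genes, the ratio was 2.05 (1.69 to 2.49, exact test, adjusted p = 1.02e-13). Against 2L, with 7.08 per 100 genes, it was 1.84 (1.53 to 2.22, adjusted p = 8.41e-11, exact test). The smallest difference was that from 3R, which had 10.5 peaks per 100 genes (ratio 1.24, 1.06 to 1.46, exact test, adjusted p = 0.00674). Peaks were placed by release 5 of the genome, whereas genes were counted in release 6. Left out of the peak counts were 28 peaks on 3RHet, 3 on 3LHet and 1 on XHet. Counting the 28 peaks of 3RHet with 3R and the 1 of XHet with X would narrow the difference from 3R. Whether it would then still pass was not tested. By length X and 3R were closer still: between its first and last peak X held 13.1 peaks per Mb, 3R 12.8, 2L 8.38 and 3L 7.26. On that scale X still exceeded 3L (ratio 1.80, 1.49 to 2.19, exact test, adjusted p = 1.70e-09) and 2L (1.56, 1.29 to 1.88, adjusted p = 3.06e-06, exact test), but a difference from 3R was not resolved (1.02, 0.870 to 1.20, exact test, adjusted p = 0.812). Adding peaks of 2R to the arms, which the comparison leaves out, gave a ratio of 1.55 (1.36 to 1.77).

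**Figure D1:**
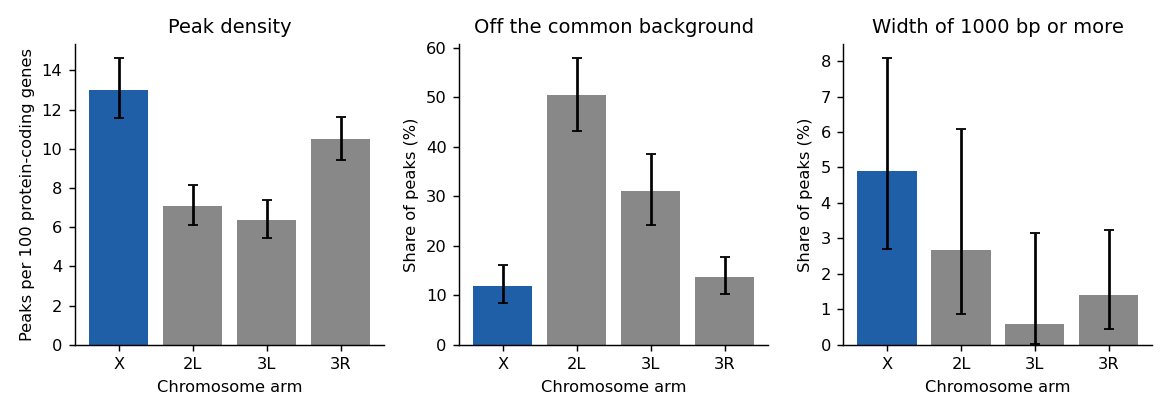
Bars give X and the autosomal arms 2L, 3L and 3R: peaks per 100 protein-coding genes (left), the share of peaks scored off the common background (middle) and that of peaks at least 1000 bp wide (right), with 95% exact intervals. X had the highest density, at 13.0 peaks per 100 genes, and a share off the common background close to that of 3R (11.9% and 13.8%). Its share of very wide peaks was also the highest (4.90%), but a difference from 2L (2.66%) was not resolved. The width of 1000 bp was chosen after the values were seen.

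Scores on X covered a wide range, with a compact bulk and a thin tail of high peaks. The score is the one the authors' peak caller gave each peak, and its likely meaning is taken up at the end. The lowest score was 6.60, the median 18.6 and the highest 131, with quartiles of 13.1 and 29.0. Of the 286 peaks, 24 scored below 10, 128 scored 20 or more, 37 scored 40 or more, 10 scored 60 or more and 3 scored 100 or more. On 2L, 3L and 3R the lowest score was 6.84, the median 17.7 and the highest 111, and 2 of the 718 peaks scored 100 or more. X and the arms did not separate in score. Above the median of all peaks compared, 18.0, lay 51.0% of the peaks on X (45.1 to 57.0%) and 48.7% of those on the arms (45.0 to 52.5%), a difference of 2.30 percentage points (two-sided Fisher's exact test, adjusted p = 0.662 over 5 shares). This does not show that the scores were alike.

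The highest peak of X, at 10638951 to 10639502 (FlyBase release 5 coordinates throughout), scored 131 at a width of 552 bp, rank 67 of 286 in width, and was also the highest of the whole list. Its nearest neighbour was 19.2 kb away, so that it stood alone. A close pair of high peaks followed further along X: 18677421 to 18678032 scored 103 and 18682125 to 18682645 scored 90.0, with midpoints 4.66 kb apart. They ranked 2 and 4 on X and 5 and 11 in the list. Between them in rank stood the peak at 17041844 to 17042995, which scored 101 over 1152 bp. The peak at 19415688 to 19416942 scored 82.1 and that at 21194503 to 21195509 scored 81.5, and each was more than 1000 bp wide. The peak of 82.1 was classed as off the common background defined below and that of 81.5 as on it. The first missed the common background only narrowly, so its class depends on the tolerance of 0.01. No order in strength between these peaks is drawn here. The other peaks among the 10 highest were at 6427249 to 6427934 (score 74.6), 16335050 to 16335927 (70.3), 13676129 to 13676572 (63.7) and 7795308 to 7795948 (60.8). None of these 10 lay in the first 5 Mb of the chromosome, where the highest score was 39.8. That stretch held only 29 peaks, 10.1% of those on X. The highest peaks of the other arms scored 111 on 3R (8251552 to 8252205), 101 on 3L (16581198 to 16581699) and 73.1 on 2L (13176654 to 13177288). The list does not pair peaks with genes, so no target gene is named.

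At the other end of the range, 2 of the 3 lowest peaks of X lay beside another peak. The lowest, at 19387347 to 19387581, scored 6.60 over 235 bp and lay 1.10 kb from its nearest neighbour. The next, at 11467529 to 11467757, scored 6.84 and lay 0.716 kb from a neighbour. The third, at 7862851 to 7863051, scored 7.59 at a width of 201 bp, which is the smallest width on X and on the arms, and lay 6.43 kb from its neighbour.

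**Figure D2:**
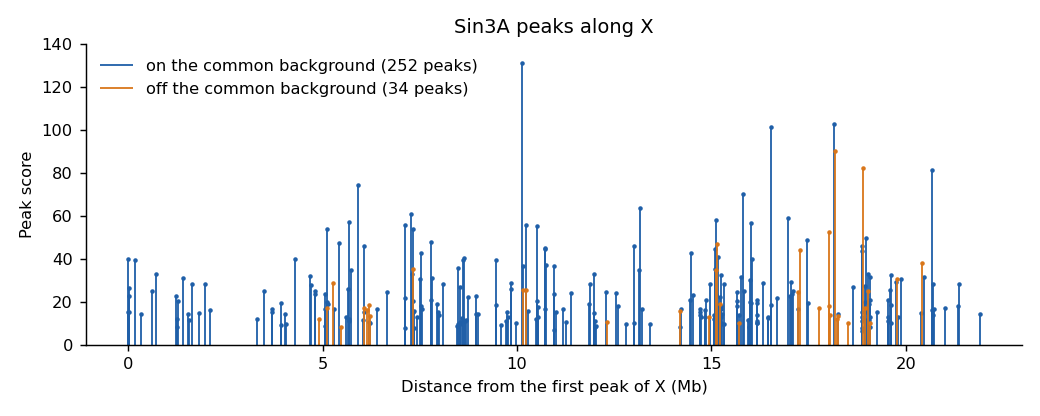
Each line is a Sin3A peak on X, placed by its distance from the first peak (Mb), with its score as height, in blue where the score lay on the series of the common background (252 peaks) and in orange where it did not (34 peaks). The highest peak, with a score of 131, stands alone, the first 5 Mb of X holds 29 peaks with none above 39.8, and long empty stretches separate dense ones.

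Peaks on X covered 130 kb in all, which is 0.593% of the distance between the first and the last peak. Widths ranged from 201 to 1719 bp with a median of 380.5 bp (quartiles 274 and 539 bp), against a range from 201 to 2110 bp and a median of 371 bp on 2L, 3L and 3R (quartiles 277 and 520 bp). Above the median width of all peaks compared, 375 bp, lay 51.7% of the peaks on X (45.8 to 57.7%) and 49.2% of those on the arms (45.4 to 52.9%), and this difference of 2.58 points did not pass (two-sided Fisher's exact test, adjusted p = 0.662). The upper end of the distribution differed more than its middle. At least 1000 bp wide were 14 of the 286 peaks on X (4.90%, 2.70 to 8.08%) and 11 of the 718 on the arms (1.53%, 0.767 to 2.72%), a difference of 3.36 points (two-sided Fisher's exact test, adjusted p = 0.0137 over 5 shares). That width was chosen after the values were seen. Single arms had 5 of 188 such peaks on 2L, 1 of 174 on 3L and 5 of 356 on 3R, and X differed from 3R and from 3L (two-sided Fisher's exact tests adjusted over the 3 arms, p = 0.0251 for each) but not past the threshold from 2L (p = 0.338). At 750 bp or more the shares were 10.5% on X and 6.13% on the arms, which missed the threshold (Fisher's exact test, adjusted p = 0.0559).

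The 14 widest peaks of X lay in 11 different windows of 1 Mb, so they were not the product of a single region. Their scores ran from 20.2 to 101 with a median of 41.3. The widest of all, at 14978604 to 14980322 (1719 bp), scored 42.8, and its nearest neighbour was 18.8 kb away. The second, at 5314380 to 5315868 (1489 bp), scored 25.1 and was followed after 94 bp by a further peak that scored 23.4. The third, at 19373397 to 19374776 (1380 bp), scored 43.8. The fourth, at 11243710 to 11245058 (1349 bp), scored 44.9, and the fifth, at 11030547 to 11031890 (1344 bp), only 20.2. These 5 scored above the median of X, and the highest-scoring of them ranked 29. Among the 14, 3 were also among the 6 highest-scoring peaks of X.

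Across the 286 peaks score and width rose together, with a Pearson correlation of 0.564 and a Spearman correlation of 0.725. On 2L, 3L and 3R the coefficients were 0.558 and 0.687 over 718 peaks. A single run of the peak caller on the same libraries gave both measures, so these coefficients only describe the list.

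**Figure D3:**
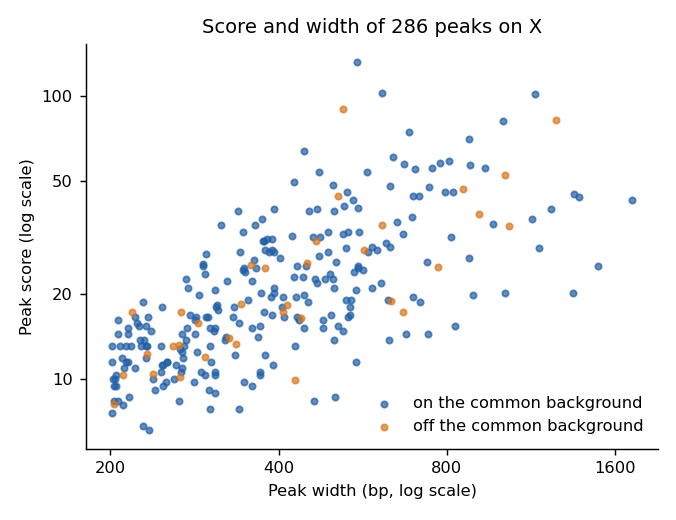
Score against width (bp) for the 286 peaks on X, both on log scales, in blue for peaks scored on the common background and in orange for those off it. The cloud rises from the narrowest peaks, of 201 bp, at scores of 7.59 to 13.1. The 552 bp peak of score 131 stands above it, and peaks wider than 1000 bp lie at scores of 20.2 to 101.

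Peaks were unevenly spread along X. The first 5 Mb held 29 peaks, 5 to 10 Mb held 74, 10 to 15 Mb 52, 15 to 20 Mb 108, and the rest of the arm 23. The median score hardly moved between these stretches, at 16.5, 18.9, 17.8, 18.5 and 18.7. How often a second peak lay within 5 kb did, at 6.90% of peaks in the first 5 Mb, 31.1% and 25% in the next stretches, 43.5% from 15 to 20 Mb and 34.8% beyond. By these medians, which were not tested, the dense stretch held more peaks, closer together, at about the usual score.

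Only 3 of the 1 Mb windows held 20 or more peaks, and together they held 86 peaks, or 30.1% of those on X. The window from 15 to 16 Mb had 32 peaks, with a median score of 17.4. Its highest, at 15627730 to 15628507, scored 57.9. The window from 19 to 20 Mb had 29 peaks with a median of 15.1, and its highest was the peak of score 82.1 named above. The window from 16 to 17 Mb had 25 peaks with a median of 19.5, and its highest was the one that scored 70.3. With the 32 peaks of the fullest window taken off X but its genes kept in the denominator, the ratio of X to the 3 arms in peaks per gene was 1.42 (1.22 to 1.64). At a finer scale, 99 of 220 windows of 100 kb between the first and the last peak were empty and 49 held a single peak. The 11 windows with 5 or more peaks held 76 peaks, 26.6% of the chromosome's. Of these 11 windows, 3 followed each other from 19300001 to 19600000, with 7, 7 and 12 peaks, and 2 from 15600001 to 15800000, with 8 and 9.

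Between these stretches X was empty over long distances. Of the 285 gaps between neighbouring peaks, 34 were longer than 200 kb, and these made up 53.0% of the distance between the first and the last peak. The longest, of 1.20 Mb, ran from 2626626 to 3830286, between a peak that scored 16.2 and a peak that scored 11.9. The second, of 0.786 Mb, ran from 13927917 to 14714317, between peaks of 9.47 and 8.38. The third, of 0.531 Mb, lay at the end of the arm from 21884410 to 22415112, between a peak of 28.1 and the last peak of X, which scored 14.4. The median gap was 20.2 kb, with quartiles of 6.29 and 114 kb.

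At 5 kb, the share of peaks with a close neighbour was about the same on X and on the arms. Another midpoint lay within 5 kb of 93 of 286 peaks on X (32.5%, 27.1 to 38.3%) and of 233 of 718 peaks on 2L, 3L and 3R (32.5%, 29.0 to 36.0%), a difference of 0.066 points (two-sided Fisher's exact test, adjusted p = 1). The curves did not coincide at other distances: within 2 kb the shares were 21.3% on X and 15.3% on the arms, and within 50 kb 84.6% on X and 77.3% on the arms, neither of which was tested. Within 20 kb they were 70.6% on X and 60.9% on the arms (Fisher's exact test, adjusted p = 0.00610). That distance reads the density of the arm as well: the share within 20 kb was 70.6% on X (65.0 to 75.8%), 64.3% on 3R (59.1 to 69.3%), 61.7% on 2L (54.3 to 68.7%) and 52.9% on 3L (45.2 to 60.5%). The parts of density and of local grouping in this difference were not tested.

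**Figure D4:**
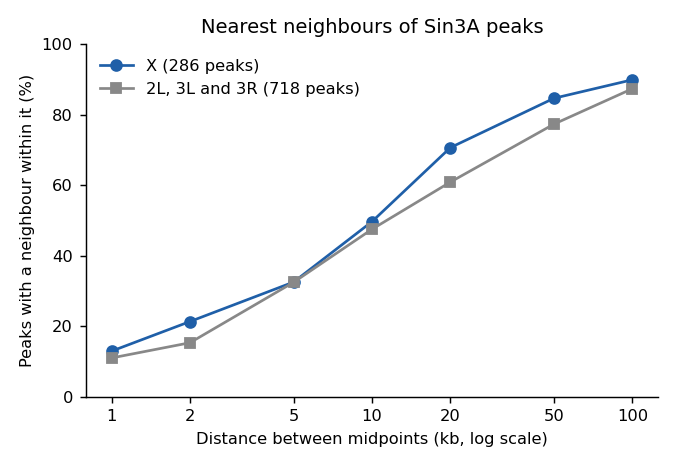
The percentage of peaks whose nearest neighbour lies within a given distance between midpoints (kb, log scale), for 286 peaks on X in blue and 718 peaks on 2L, 3L and 3R in grey. The curves meet at 5 kb, where both are at 32.5%, and X lies above the arms at 2 kb (21.3% and 15.3%) and at 20 kb (70.6% and 60.9%).

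Chains of peaks were formed by joining neighbours whose midpoints lay within 5 kb. On X 193 peaks stood alone, 30 chains were pairs, and 8 held 3 or more peaks, with 33 peaks among them (11.5%, 8.08 to 15.8%). On the arms 95 of 718 peaks lay in chains of 3 or more (13.2%, 10.8 to 15.9%), and this difference of -1.69 points did not pass (Fisher's exact test, adjusted p = 0.662). With neighbours joined only within 1 kb, 17 of 286 peaks on X and 17 of 718 on the arms lay in such chains (5.94% and 2.37%, Fisher's exact test, adjusted p = 0.0167). These peaks came from 5 runs on X and 5 on the arms, and the test counted members of a run as separate, so its p-value is too small. On X 7 gaps between peaks were shorter than 100 bp and 18 shorter than 250 bp, the shortest being 47 bp. Whether such neighbours are parts of a single enriched region was not tested.

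The longest chain on X held 6 peaks between 19386059 and 19390670, a stretch of 4.61 kb of which 50% was covered by peaks. In order along the chromosome they scored 15.1, 6.60, 13.1, 45.9, 7.85 and 11.2. The fourth, 821 bp wide, scored 30.8 above the next highest, and the others were small peaks on either side of it. A different arrangement was seen in the chain of 5 from 16677534 to 16687358, whose scores of 19.5, 21.0, 10.3, 13.8 and 10.3 lay close together. Its last 3 peaks were separated by gaps of 74 and 94 bp. The other chain of 5, from 15747131 to 15754547, scored 32.6 at its first peak and then 10.1, 16.9, 13.1 and 9.48. In 24 of the 38 chains with 2 or more peaks on X, the highest-scoring member was also the widest, against 72 of 97 on the arms, a contrast that was not tested. By arm this was 33 of 52 chains on 3R (63.5%, beside 63.2% on X), 22 of 26 on 2L and 17 of 19 on 3L. Among the 55 pairs of neighbours within 5 kb on X, the scores differed by a median of 10.7, and in 28 pairs by at least 10. The greatest difference was 65.3.

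**Figure D5:**
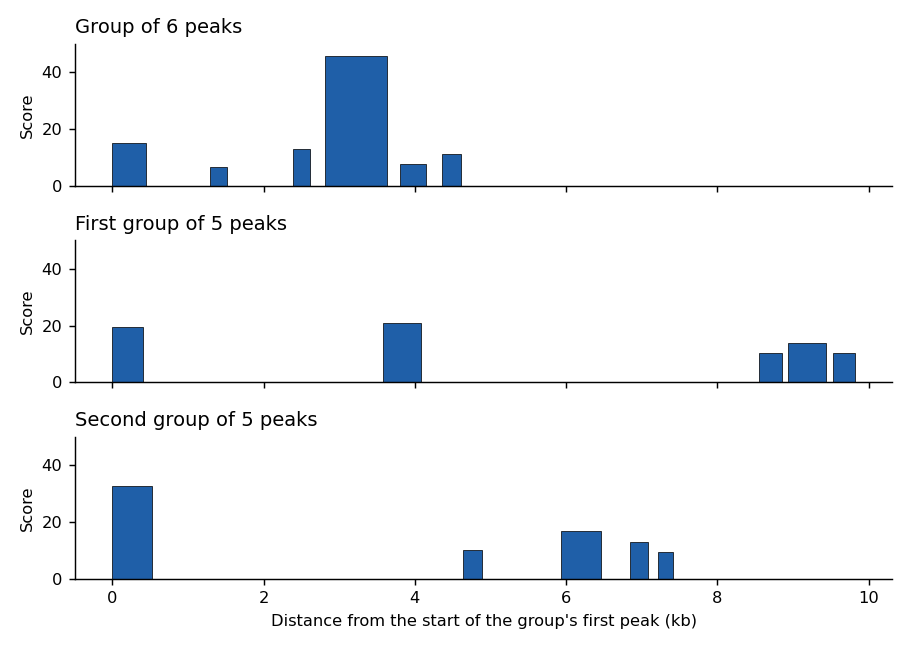
The 3 longest chains of peaks on X, with each peak drawn to scale by its distance from the start of the chain's first peak (kb) and its score as height. In the chain of 6 a single peak of score 45.9 stands among peaks of 6.60 to 15.1, whereas the scores of the first chain of 5 run from 10.3 to 21.0.

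Peaks with a close neighbour had a lower median score than isolated ones on X. The 93 peaks with a neighbour within 5 kb had a median score of 16.9 and a median width of 408 bp, and the 193 isolated peaks had medians of 18.9 and 376 bp. On 2L, 3L and 3R the medians were 15.8 and 330 bp for 233 such peaks and 18.7 and 385 bp for 485 isolated ones. The peaks with a neighbour had the higher median width on X and the lower on the arms. Their width quartiles were the lower ones on both. On X these were 273 and 529 bp, beside 275 and 545 bp for isolated peaks. On the arms they were 257 and 508 bp, beside 287 and 529 bp. These medians and quartiles are given as descriptions, without a test.

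Most peaks of X carried scores from a fixed series of values. Many scores of the list fall on a ladder given by −log10 of the Poisson probability of exceeding a whole-number pileup at a mean of 61.3. A peak on this ladder is called on the common background, or on the series. This reading is an inference from the values. On X 252 peaks lay on the series and 34 off it (11.9%, 8.38 to 16.2%), against 198 of 718 off it on the arms (27.6%, 24.3 to 31.0%), a difference of -15.7 points (two-sided Fisher's exact test, adjusted p = 1.70e-07). The difference came from 2L (50.5% off the series) and 3L (31.0%). Against 3R, with 13.8%, it did not pass (-1.88 points, exact test, adjusted p = 0.855 over 15 comparisons with single arms). Of the 34 peaks, 4 scored 17.23, a value shared by 15 peaks of the list that missed the series by 0.014. If the score is read in this way, peaks on the series reached a median of 2.35 times the background on X (range 1.71 to 5.49) and of 2.30 times on the arms (1.73 to 5.04). At least 2 times the background was reached by 83.3% of these peaks on X and by 79.4% on the arms. By arm the share was 67.7% on 2L, 81.7% on 3L and 82.1% on 3R, so X lay close to 3L and 3R. This was not tested.

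Over all of X 11.9% of peaks were off the series. By stretch these were 0 of 29 peaks in the first 5 Mb, 9 of 74 from 5 to 10 Mb and 4 of 52 from 10 to 15 Mb. From 15 to 20 Mb they were 19 of 108 peaks, and beyond that 2 of 23. Differences between these stretches were not tested. The window from 18 to 19 Mb held 9 peaks, of which 7 were off the series. These included the peak of score 90.0, while its neighbour of score 103 was on it. If the score is read in this way, the scores of this pair refer to different backgrounds. Their order in strength could then not be read from them. The median score was 17.7 for the 34 peaks off the series and 18.7 for the 252 on it. Their median widths were 410.5 and 378.5 bp.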

How the data were processed

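ChIP-seq of Sin3A was analysed from 1 deposited list of peaks; values per library were not used here. Per the submitters' processing notes the tools were MACS2, BWA and CASAVA (1.7.0.2, 1.7.0.3) and the build BDGP5; settings are absent. Coordinates are FlyBase release 5, 1-based, per the file headers. The deposited score is the authors', and its statistic is not named; pooling of replicates, the threshold and duplicate treatment: not given in the sources used here.

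Midpoints gave distances, and chains joined midpoints within 5 kb. The Poisson mean was fitted to 64 scores shared by at least 6 peaks, of which 63 lay within 0.01 of the series; that tolerance takes up 5.52% of the steps, and 74.3% of all peaks lay on it. Genes per arm come from a RefSeq table of release 6, used for counting only. Densities were compared by exact conditional binomial tests (Benjamini-Hochberg over 3 arms) and 5 shares by Fisher's exact tests (adjusted over 5; over 15 for single arms); intervals are Clopper-Pearson. The threshold was 0.05. Named peaks are the 10 highest, 5 widest and 3 lowest on X, the 3 longest chains, the flanks of the 3 longest gaps and the highest of each 1 Mb window with 20 or more peaks. On the arms the highest is named. The members and tests were chosen with earlier results of these data known. Methods were tested on simulated data. The counts simulated for the exact tests were independent, so they cannot show how these tests behave with neighbouring peaks that are not. Python 3.11.15, NumPy 2.4.6, SciPy 1.17.1, pandas 2.3.3 and matplotlib 3.10.9 were used. No release 5 genome was used here, so no sequence or gene is given for a peak.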

Additional observations from a re-analysis of the deposited data

Results flagged for a closer look

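A signal outside the arms compared came from 98 peaks that the list places on heterochromatic or unplaced sequences of release 5. Of these, 1 was on XHet, at 84631 to 85013 (score 15.5, 383 bp wide), and it is not counted among the peaks on X.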

How the results depend on the processing

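Of 82 recomputed values, 66 kept their direction and side of the threshold. The density on X passed under 16 of its 17 alternatives, with ratios from 1.24 (3R alone) to 2.05 (3L alone). With peaks merged within 20 kb, 146 regions on X and 431 on the arms were left. The ratio was then 1.36 (1.12 to 1.64, exact test, p = 0.00209). By the length between first and last peak it was 1.35, and against 3R alone by length it missed the threshold (1.02, exact test, p = 0.812). The share off the common background missed the threshold of Fisher's exact test against 3R alone (-1.88 points, adjusted p = 0.924 over the 5 shares) and passed in its 10 other alternatives; at a tolerance of 0.02 it was 9.44% on X and 24.7% on the arms.

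The difference in peaks with a neighbour, which had not passed, passed at 20 kb (9.77 points). It turned negative among the 25% of peaks with the highest score (-2.10), with peaks merged within 1 kb (-5.53), without 3L (-2.41), against 2L alone (-0.993) and against 3R alone (-3.16), without passing. That in chains of 3 or more turned positive and passed at 1 kb (3.58, from 5 runs on X and 5 on the arms) and 20 kb (11.5), and turned positive without passing at 10 kb (2.06), without 3R (1.04), against 3L alone (4.07) and among peaks on the common background (3.46). The share above the median score turned to -0.310 among the 25% highest, without passing. The share at least 1000 bp wide passed (3.36). The causes were not tested. Single arms (by genes or length), 2R, the common background alone, both widths and merging within 20 kb were chosen after seeing the data.

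No paired analysis was possible because replicates are not separate in the peak list, and leaving out replicates was not possible either. Depth is unknown.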
